A study of Homo sapiens with 6 samples.

Results

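The 7 genes described here are the members MORC2, MORC3 and MORC4 of the microrchidia (MORC) family, the genes MPHOSPH8, PPHLN1 and FAM208A of the human silencing hub (HUSH) complex, and SETDB1, a histone methyltransferase that works with it. They were listed by name, with earlier results of these data known, from 56303 gene symbols in the count table. All 7 were among the 18243 genes with enough counts to be tested. FAM208A is the older symbol of TASOR. The libraries came from SW480, a cell line of a human colon adenocarcinoma, in which RBM39, an RNA-binding protein and splicing factor, was depleted with a short hairpin RNA. The group shCtrl, of 3 libraries, carried a nonsilencing hairpin, and the group shRBM39, also of 3, carried one that targets RBM39; the labels give the genotypes as WT and RBM39 knockdown. Per the study's methods, both kinds of hairpin were brought in by lentivirus and stable clonal lines were selected with puromycin, so each group carried an integrated vector. The paper states 3 replicate experiments per group and calls them independent. How many separate lines stood behind the 3 libraries of a group is not given in the sources used here. The p-values thus measure the spread between these libraries, which may not include that between lines.

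The HUSH complex represses transposable elements, integrated viral DNA and other intronless sequences by binding their transcripts and spreading trimethylation of lysine 9 of histone H3 (H3K9). TASOR is its scaffold, MPHOSPH8 (M-phase phosphoprotein 8) reads methylated H3K9 through a chromodomain, and PPHLN1 (periphilin) binds RNA. SETDB1 deposits the methyl marks, and MORC2, a DNA-binding ATPase, compacts the chromatin of the targets.

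Between 18042924 and 20428901 reads were counted per library, and the 7 genes had from 328 counts (MORC3 in shRBM39 replicate 2) to 2100 counts (MPHOSPH8 in shCtrl replicate 2). RBM39 itself had a mean of 441 ± 6.53 CPM (counts scaled to library size, with factors from the trimmed mean of M values, TMM) in shCtrl and 278 ± 13.3 CPM in shRBM39 (SD, n = 3). Among 8 colon epithelium markers, 7 reached 1 CPM in some library, and CDX1 was nearly absent, with at most 2 counts. KRT8, KRT18 and KRT20 were called higher in shRBM39, CDX2, CDH1 and VIL1 lower, and EPCAM was not called. The summed level of these markers ran from 10899 to 11655 CPM in shCtrl and from 13880 to 14426 CPM in shRBM39, most of it from KRT8, which had a mean of 6924 CPM in shCtrl and 9309 CPM in shRBM39. CDX2, a transcription factor of the intestine, had 21.7 and 4.95 CPM, and KRT20 0.310 and 1.12 CPM. Of 6 markers of blood, endothelial, mesenchymal, liver and muscle cells, 4 reached 1 CPM, their sum ran from 12.9 to 14.0 CPM in shCtrl and from 21.5 to 24.9 CPM in shRBM39, and PTPRC, which marks blood cells, was at 0 in every library. COL1A1 (log2 fold change 0.81), PECAM1 (0.79) and DES (0.97), which mark fibroblasts, endothelium and muscle, were called higher, ALB was not called, and COL3A1, also a fibroblast gene, was near 0. The part of these differences in the values of the 7 genes was not tested, and in bulk libraries a change in a fraction of the cells and a change in all cells cannot be told apart.

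Transcripts of the 7 genes did not move together when RBM39 was depleted. FAM208A and MORC4 fell, MORC2 and PPHLN1 rose, and MPHOSPH8, SETDB1 and MORC3 did not pass the test. Thus 4 of 7 genes were called, by edgeR's quasi-likelihood test at a Benjamini-Hochberg adjusted p below 0.05, against 59.1% of all tested genes. In each direction the count was 2 of 7, against 29.2% of tested genes higher and 29.9% lower in shRBM39, so these shares were near the background. The values of the 3 shRBM39 libraries did not overlap those of the 3 shCtrl libraries for the same 4 genes, against 63.3% of all tested genes. The median log2 fold change of the 7 genes was -0.03, beside -0.01 over all tested genes. By size, the change of FAM208A exceeded that of 66.4% of tested genes and that of MORC4 exceeded 51.6%, while MPHOSPH8, SETDB1 and MORC3 lay above only 3.57%, 4.90% and 9.01% of them.

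**Figure D1:**
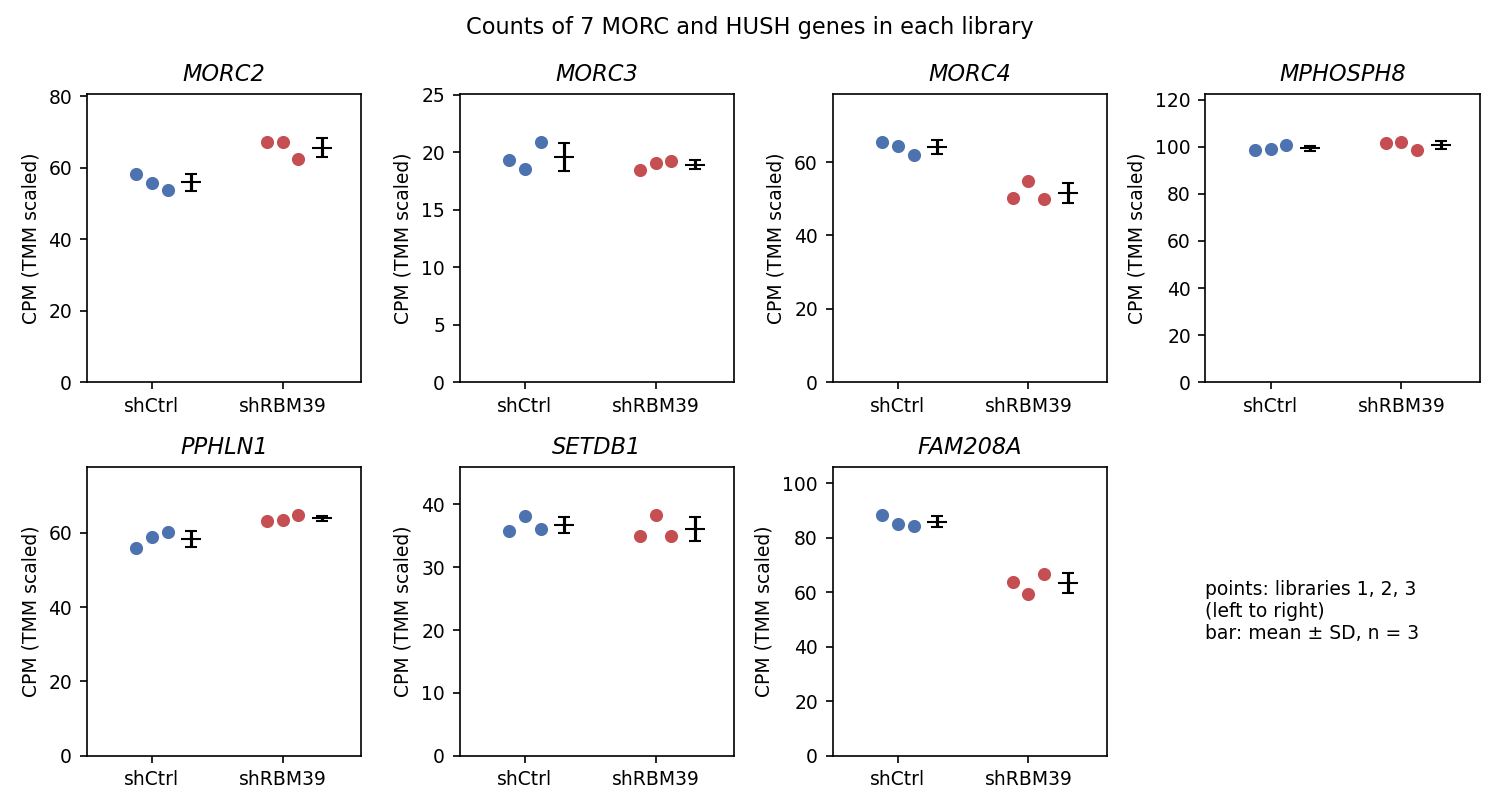
Scaled counts (CPM, TMM factors, vertical axis from 0) of the 7 genes in the 3 shCtrl (blue) and 3 shRBM39 (red) libraries, with each group's mean and SD beside the points. The points of FAM208A and MORC4 are all lower in shRBM39, those of MORC2 and PPHLN1 all higher, and those of MORC3, MPHOSPH8 and SETDB1 overlap between the groups.

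FAM208A (chromosome 3, 56620133 to 56683237, minus strand, GRCh38), the scaffold of the complex, showed the largest change of the 7. It had 88.4, 85.2 and 84.4 CPM in shCtrl replicates 1, 2 and 3 and 63.9, 59.5 and 66.7 CPM in shRBM39 replicates 1, 2 and 3. Every shRBM39 library was below every shCtrl library. The mean went from 86.0 ± 2.12 to 63.4 ± 3.58 CPM (SD, n = 3). The level thus fell by 26.2%, a log2 fold change of -0.44 (SE 0.05, 95% interval -0.53 to -0.35, adjusted p 2.74e-10).

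PPHLN1 (chromosome 12, 42238447 to 42459715, plus strand), the RNA-binding subunit, moved the other way and less. Its levels were 56.0, 58.8 and 60.2 CPM in shCtrl and 63.3, 63.6 and 64.7 CPM in shRBM39. The groups did not overlap, although the highest shCtrl and the lowest shRBM39 library were close. Its mean rose by 9.51%, from 58.3 ± 2.15 to 63.9 ± 0.773 CPM (SD, n = 3), with a log2 fold change of 0.13 (SE 0.04, 95% interval 0.04 to 0.22, adjusted p 0.0119). This was the smallest of the called changes, and without shCtrl replicate 1 it was 0.11 with an adjusted p of 0.0552, no longer past the threshold. PPHLN1 was called in 10 of 16 alternatives in all. Its log2 fold change ran from 0.0067 to 0.25 over them, the highest with offsets for GC content and length.

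MPHOSPH8 (chromosome 13, 19633681 to 19673459, plus strand), the chromodomain subunit that reads the H3K9 mark, differed by less than the spread between libraries. It had 98.7, 98.9 and 100.7 CPM in shCtrl and 101.5, 102.2 and 98.8 CPM in shRBM39, and the groups overlapped. Its log2 fold change was 0.02 (SE 0.04, 95% interval -0.06 to 0.10, adjusted p 0.693). Of the 3 subunit genes, 1 was thus lower, 1 higher and 1 not called with TMM factors. With library totals, which moved the median of all genes by -0.12 in log2, PPHLN1 was at 0.0071 and not called, and MPHOSPH8 was called lower at -0.10 (adjusted p 0.0228 by edgeR), so that 2 were lower and none higher, and both RPKM scales gave the same calls. The -0.10 of MPHOSPH8 was smaller in size than that move of the median.

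SETDB1 (chromosome 1, 150926263 to 150964744, plus strand), which writes H3K9 methylation, was close between the groups as well. The 3 shCtrl libraries had 35.8, 38.1 and 36.1 CPM and the 3 shRBM39 libraries 34.96, 38.29 and 34.95 CPM, with replicate 2 the highest in both. The log2 fold change was -0.03 (SE 0.05, 95% interval -0.14 to 0.08, adjusted p 0.680).

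MORC2 (chromosome 22, 30925130 to 30968298, minus strand), the MORC protein that acts with HUSH, was higher in shRBM39. Its levels were 58.3, 55.8 and 53.7 CPM in shCtrl and 67.3, 67.2 and 62.5 CPM in shRBM39, without overlap. The mean rose by 17.4%, from 55.9 ± 2.28 to 65.7 ± 2.76 CPM (SD, n = 3), with a log2 fold change of 0.23 (SE 0.05, 95% interval 0.14 to 0.33, adjusted p 6.44e-05). On the log2(RPKM + 1) scale, which is scaled by library totals, the change was 0.10 with an adjusted p of 0.0936 in limma, no longer past the threshold, and scaling by library totals in edgeR gave 0.11 with an adjusted p of 0.0444, still past it.

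MORC4 (chromosome X, 106813871 to 107000244, minus strand), a related ATPase with a CW zinc finger, went down. It had 65.6, 64.5 and 61.9 CPM in shCtrl and 50.1, 54.8 and 50.1 CPM in shRBM39. All shRBM39 values lay below all shCtrl values. The mean dropped from 64.0 ± 1.90 to 51.7 ± 2.70 CPM (SD, n = 3) and fell by 19.4%, a log2 fold change of -0.31 (SE 0.05, 95% interval -0.41 to -0.22, adjusted p 6.78e-07).

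MORC3 (chromosome 21, 36320189 to 36386148, plus strand), an ATPase found in promyelocytic leukaemia (PML) nuclear bodies, had the lowest level and the widest interval of the 7. Its values of 19.3, 18.6 and 20.9 CPM in shCtrl and 18.5, 19.1 and 19.2 CPM in shRBM39 overlapped. The log2 fold change of MORC3 was -0.05 (SE 0.07, 95% interval -0.19 to 0.09, adjusted p 0.541). MORC1, the germline member of the family, had 0 counts in all 6 libraries.

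**Figure D2:**
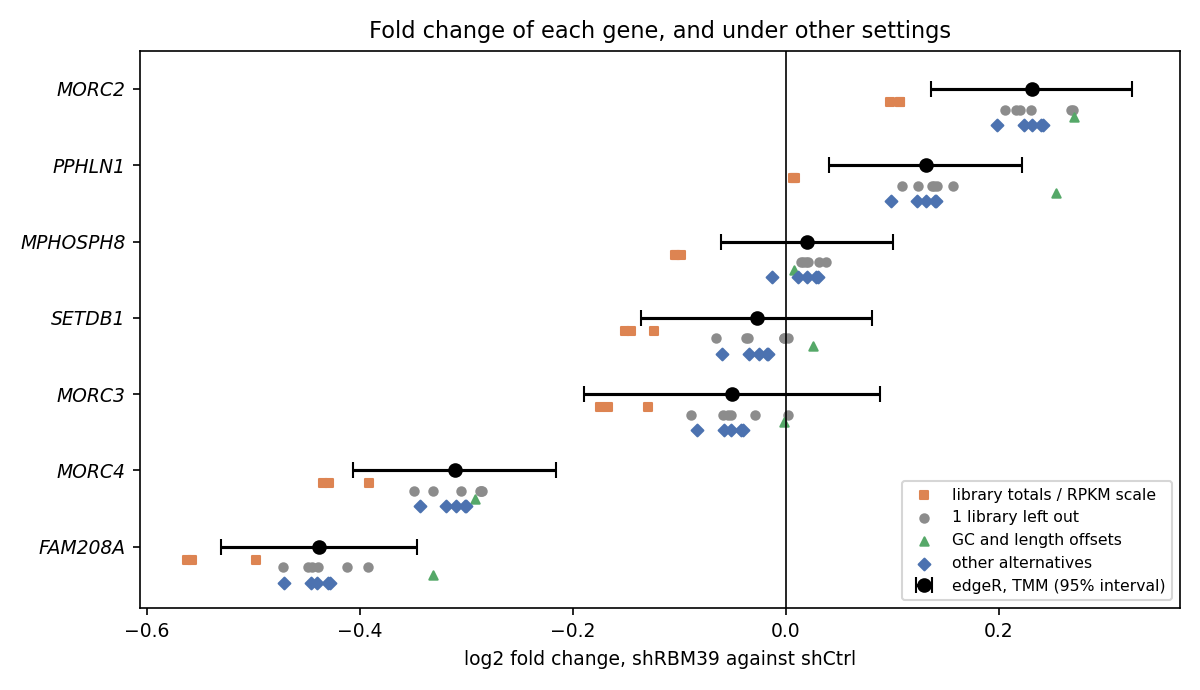
Log2 fold change of shRBM39 against shCtrl (horizontal axis) for the 7 genes, with black points and bars for the edgeR estimate and its 95% interval and smaller symbols for the other settings tried. FAM208A and MORC4 stay below 0 and MORC2 above 0 at every symbol, whereas the symbols of MPHOSPH8, SETDB1 and MORC3 lie on both sides of 0 and those of PPHLN1 reach 0.01.

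Levels between genes were compared per length of merged exons, as RPKM (reads per kilobase of exon, scaled to the total of the library). In shCtrl, MPHOSPH8 had the highest level of the 7, 21.1 ± 0.356 RPKM (SD, n = 3), followed by MORC4 with 11.0 ± 0.282 RPKM. MORC2 with 9.31 ± 0.318 RPKM and FAM208A with 9.12 ± 0.151 RPKM could not be ordered, since their libraries overlapped. SETDB1 with 5.39 ± 0.222, PPHLN1 with 5.00 ± 0.223 and MORC3 with 3.19 ± 0.199 RPKM came last. In shRBM39 the order was MPHOSPH8 (19.7 ± 0.337 RPKM), MORC2 (10.0 ± 0.419), MORC4 (8.16 ± 0.406), FAM208A (6.17 ± 0.361), PPHLN1 (5.03 ± 0.0622), SETDB1 (4.86 ± 0.247) and MORC3 (2.82 ± 0.0531), with overlap only between PPHLN1 and SETDB1. Several places in this order depended on the length used. The merged exons of the 26 annotated transcripts of PPHLN1 span 12155 bases and its canonical transcript 1859 bases, and per length of the canonical transcript PPHLN1 came first, with 32.7 ± 1.46 RPKM in shCtrl. On that scale MORC4 (13.0 ± 0.648 RPKM) stood above MORC2 (11.1 ± 0.463) in shRBM39. There the mean of SETDB1 (7.81 ± 0.396) was above that of FAM208A (7.41 ± 0.433), but the libraries of SETDB1 and FAM208A overlapped. In shCtrl the means of FAM208A (11.0 ± 0.182) and MORC2 (10.3 ± 0.352) changed places. MORC3 was the lowest of the 7 on both scales and in both groups.

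Ratios between 2 of the genes within a library do not depend on how libraries are scaled to each other. Of the 21 pairs, 15 had ratios that did not overlap between the groups, against 62.9% of the ratios between 1 of the 7 genes and any other tested gene. A two-sided exact permutation test of 3 against 3 libraries cannot go below p = 0.1, which these 15 pairs reached, and the lowest adjusted value over the 21 pairs was 0.14. The ratio of MORC2 to FAM208A moved most, from 1.03, 1.03 and 0.999 in shCtrl to 1.65, 1.77 and 1.47 in shRBM39, a difference of 0.67 in log2. For MORC2 over MORC4 the ratios were 0.859, 0.837 and 0.839 in shCtrl and 1.30, 1.19 and 1.21 in shRBM39, a log2 difference of 0.54.

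Within the HUSH complex, the ratios to the scaffold shifted for both other subunits. PPHLN1 over FAM208A was 0.512, 0.558 and 0.577 in shCtrl and 0.800, 0.863 and 0.785 in shRBM39, a log2 difference of 0.57. MPHOSPH8 over FAM208A was 2.24, 2.33 and 2.39 in shCtrl and 3.18, 3.44 and 2.97 in shRBM39, a log2 difference of 0.46. In both pairs all shRBM39 libraries were above all shCtrl libraries, and the ratio of MPHOSPH8 to PPHLN1 moved by -0.11, also without overlap. The 6 pairs whose ratios overlapped were MORC2 with PPHLN1, MORC3 with MPHOSPH8, MORC3 with SETDB1, MORC4 with FAM208A, MPHOSPH8 with SETDB1 and PPHLN1 with SETDB1. So FAM208A and MORC4, the genes that fell, had a ratio that differed by 0.13 in log2, with overlapping libraries.

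**Figure D3:**
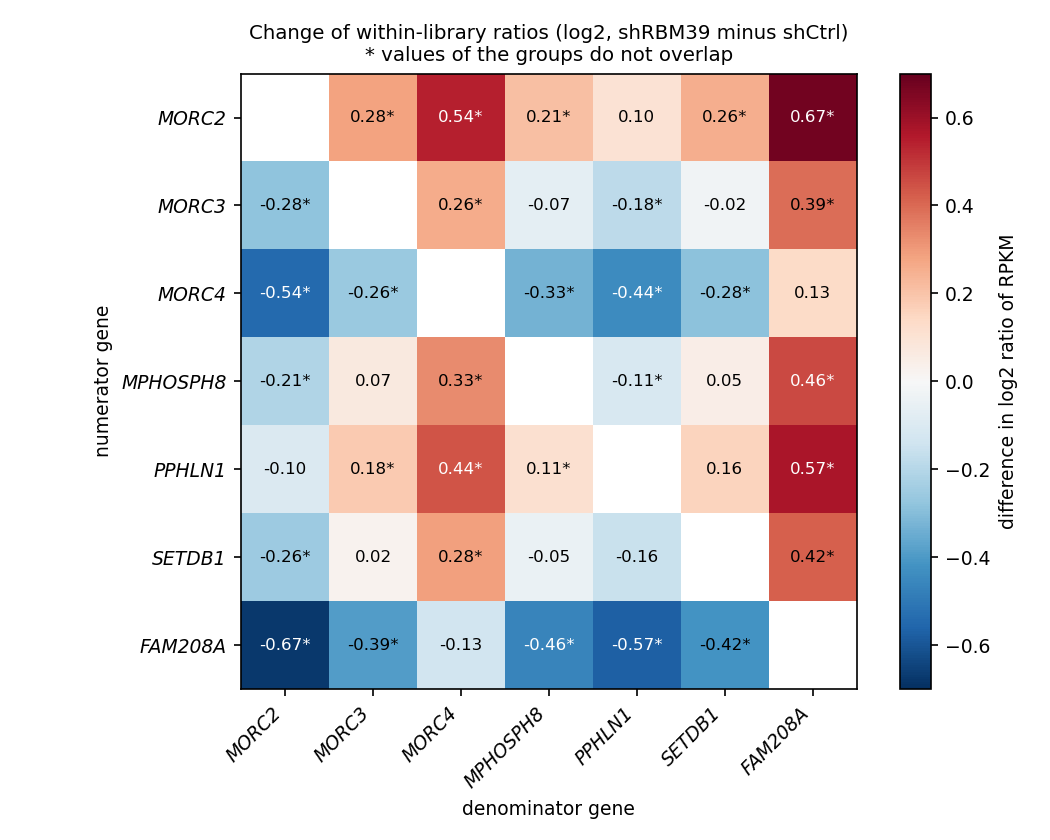
Difference between groups (shRBM39 minus shCtrl) in the log2 ratio of RPKM of the gene in the row to the gene in the column, with red for a higher and blue for a lower ratio in shRBM39 and a star where the libraries of the groups do not overlap. The row of FAM208A is blue throughout and starred against every gene but MORC4, with -0.67 against MORC2 at its lowest.

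Over the 6 libraries, the pattern of MORC2 (log2 CPM centred on each gene's mean) was most like those of TAF6L, ARIH2 and FAM57A among 12051 genes with at least 5 CPM on average. Their root-mean-square differences from MORC2 were 0.0141, 0.0159 and 0.0170 in log2 units, and their log2 fold changes were 0.22, 0.22 and 0.25. Of the other 6 genes, PPHLN1 was the nearest to MORC2 at 0.0933 and FAM208A the farthest at 0.346. These values describe likeness over libraries that share 1 contrast and were not tested.

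Exons of some other genes lie over those of the 7, and although the library kit keeps the strand, whether the counting used it is not given in the sources used here. MORC2-AS1, on the strand opposite MORC2, covers 25.8% of its merged exon bases but had only 24, 12 and 19 counts in shCtrl and 27, 23 and 18 in shRBM39. CCDC66, opposite FAM208A over 287 bases (2.92%), had 26.2 ± 1.10 CPM in shCtrl and 19.1 ± 1.30 CPM in shRBM39 (SD, n = 3), and changed by -0.45 in log2 (adjusted p 3.88e-07) beside the -0.44 of FAM208A. CERS2, opposite SETDB1 over 13.4% of its bases, changed by -0.33 (adjusted p 1.02e-07), and CHAF1B, on the strand of MORC3 and over 1.39% of its bases, by 0.61 (adjusted p 2.40e-11). For MORC3, AP000692.9 on the same strand covers 3.20% and had 5 to 17 counts in a library. The other overlapping genes (AP000692.10, PRICKLE1 and RP11-328C8.4) had 9 counts or fewer in each library. How reads in the shared bases were assigned was not tested.

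Splicing of the 7 genes was then examined in the table of differential events, in which 3 of the 7 had a record. These were FAM208A, MORC4 and PPHLN1, with 4 skipped exon records of the 1582 records listed, and MORC2, MORC3, MPHOSPH8 and SETDB1 had none. Over all genes, 1198 symbols had a record, beside 18243 genes tested on counts. How many events of each gene were tested is not known here. Whether 3 of 7 is more than usual for genes of such length and level was therefore not tested. Only records with a p-value of at most 0.0499, not adjusted for the number of events, and a difference of at least 0.1 in inclusion level are listed. These were 4.76% of the skipped exon events tested. The absence of a gene from the table thus says only that no event of it passed both limits. Inclusion levels run from 0 (exon always skipped) to 1 (always included) and correct for the length over which reads can fall. The table names its samples group 1 and group 2 without saying which is the knockdown, so no direction relative to RBM39 was drawn.

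Both records of PPHLN1 are of whole-codon exons in the coding sequence, which are printed here like the exons of the other records. Exon 3 of 10 (chr12:42351885-42352049, plus strand, GRCh38) has 165 bases, or 55 codons, and 8 annotated transcripts join its neighbours without it while 13 contain it. Exon 6 (chr12:42384940-42384996, plus strand) has 57 bases, or 19 codons, with 5 annotated transcripts that leave it out and 10 that hold it. Capitals mark the exon, with 20 intronic bases on each side in lower case.
PPHLN1 exon 3: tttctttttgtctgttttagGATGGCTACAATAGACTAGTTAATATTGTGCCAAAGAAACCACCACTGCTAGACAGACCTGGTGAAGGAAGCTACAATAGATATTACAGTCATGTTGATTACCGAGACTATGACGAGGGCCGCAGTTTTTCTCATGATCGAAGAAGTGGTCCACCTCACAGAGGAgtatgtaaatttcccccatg
PPHLN1 exon 6: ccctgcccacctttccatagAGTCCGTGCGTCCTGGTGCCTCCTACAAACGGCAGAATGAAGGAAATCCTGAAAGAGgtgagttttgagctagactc
Both exons begin after AG and end before GT, and 16 and 15 of the 20 bases before exons 3 and 6 are pyrimidines. Without exon 3 the canonical reading frame would hold 312 codons in place of 367, and without exon 6 it would hold 348.

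PPHLN1 exon 3 was included at 0.418, 0.464 and 0.432 in the libraries of group 1 and at 0.585, 0.535 and 0.524 in those of group 2, from 224 to 297 reads per library. All levels of group 1 were below all of group 2. The means were 0.438 ± 0.0236 and 0.548 ± 0.0325 (SD, n = 3), a difference of -0.11 (group 1 minus group 2) with an exact permutation p of 0.1, the smallest possible. Skipping reads summed to 283 in group 1 and 185 in group 2, while inclusion reads were close, at 497 and 508. In an edgeR fit of inclusion against skipping reads over all listed records the log2 odds ratio was -0.64 (adjusted p 0.00778), and 37.3% of the listed records passed 0.05. Records were listed for a difference in these same reads. The adjusted p, the exact permutation p and the lack of overlap are therefore biased towards a difference, here and for the other records. They give no independent support. Without the first value of group 1 or the first of group 2 the adjusted p of the edgeR fit was 0.0642 or 0.0558.

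PPHLN1 exon 6 was included in nearly all transcripts of group 2. The libraries of group 1 had 0.820, 0.802 and 0.903 and those of group 2 had 1, 1 and 0.940, from 28 to 68 reads per library. Again the groups did not overlap, with means of 0.842 ± 0.0539 and 0.980 ± 0.0346 (SD, n = 3), a difference of -0.14 and an exact permutation p of 0.1. Skipping reads numbered 9, 6 and 3 in group 1 and 0, 0 and 2 in group 2. The edgeR fit gave a log2 odds ratio of -2.72 (adjusted p 0.00990), and the adjusted p was 0.0971, 0.0613 and 0.0688 without the first value of group 1, the first of group 2 and the second of group 2. Over all listed skipped exon records, 56.1% had groups that did not overlap and 72.6% had the lower level in group 1, so the direction shared by both PPHLN1 exons was the usual one in the table. Among these records the difference of exon 3 exceeded 6.02% and that of exon 6 exceeded 23.0%, while exon 3 had more reads than 96.8% of them.

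The records of MORC4 and FAM208A are of exons whose lengths are not whole codons, so skipping shifts the reading frame. MORC4 exon 2 of 17 (chrX:106999677-106999749, minus strand) has 73 bases, 1 over whole codons, and no annotated transcript joins its flanks without it. FAM208A exon 22 of 24 (chr3:56624828-56625006, minus strand) has 179 bases, 2 over whole codons, and 1 annotated transcript, with no coding sequence defined, leaves it out. Both are coding throughout and are shown in the same way, read on the minus strand.
MORC4 exon 2: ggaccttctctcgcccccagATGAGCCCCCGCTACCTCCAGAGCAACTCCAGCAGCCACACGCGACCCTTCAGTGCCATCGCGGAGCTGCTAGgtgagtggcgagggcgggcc
FAM208A exon 22: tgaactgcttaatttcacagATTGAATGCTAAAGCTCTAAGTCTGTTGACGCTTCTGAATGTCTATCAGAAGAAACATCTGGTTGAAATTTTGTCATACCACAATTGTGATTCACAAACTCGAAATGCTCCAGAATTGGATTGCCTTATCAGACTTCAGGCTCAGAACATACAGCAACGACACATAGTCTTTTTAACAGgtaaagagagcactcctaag
If MORC4 exon 2 is left out of the canonical transcript, a stop codon follows after 37 codons in place of 937, and for FAM208A exon 22 after 1391 in place of 1670. The upstream flanking exon of the MORC4 record matches no exon of the canonical transcript. The 37 codons may therefore not hold for the recorded event. AG and GT flank these exons too, and 14 and 11 of the 20 bases before MORC4 exon 2 and FAM208A exon 22 are pyrimidines.

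MORC4 exon 2 had the levels 1, 0.793 and 0.893 in the libraries of group 1 and 0.490, 0.842 and 0.774 in those of group 2, from only 7 to 28 reads per library. The groups overlapped, and the first value of group 2 stood below the other 5. The difference was 0.19, with an exact permutation p of 0.2 and an adjusted p of 0.105 in the edgeR fit, and without the first value of group 2 it was 0.09. Skipping reads summed to 2 in group 1 and 16 in group 2, of which 10 came from that library.

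FAM208A exon 22 stood at 1, 0.536 and 0.877 in group 1 and, in group 2, at 1, 1 and 0.877, from 6 to 22 reads per library. The groups overlapped and shared their highest value. Its difference of -0.15 had an exact permutation p of 0.7 and an adjusted p of 0.158 in the edgeR fit, and without the second value of group 1 it was -0.02. That library held 4 of the 5 skipping reads of group 1.

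**Figure D4:**
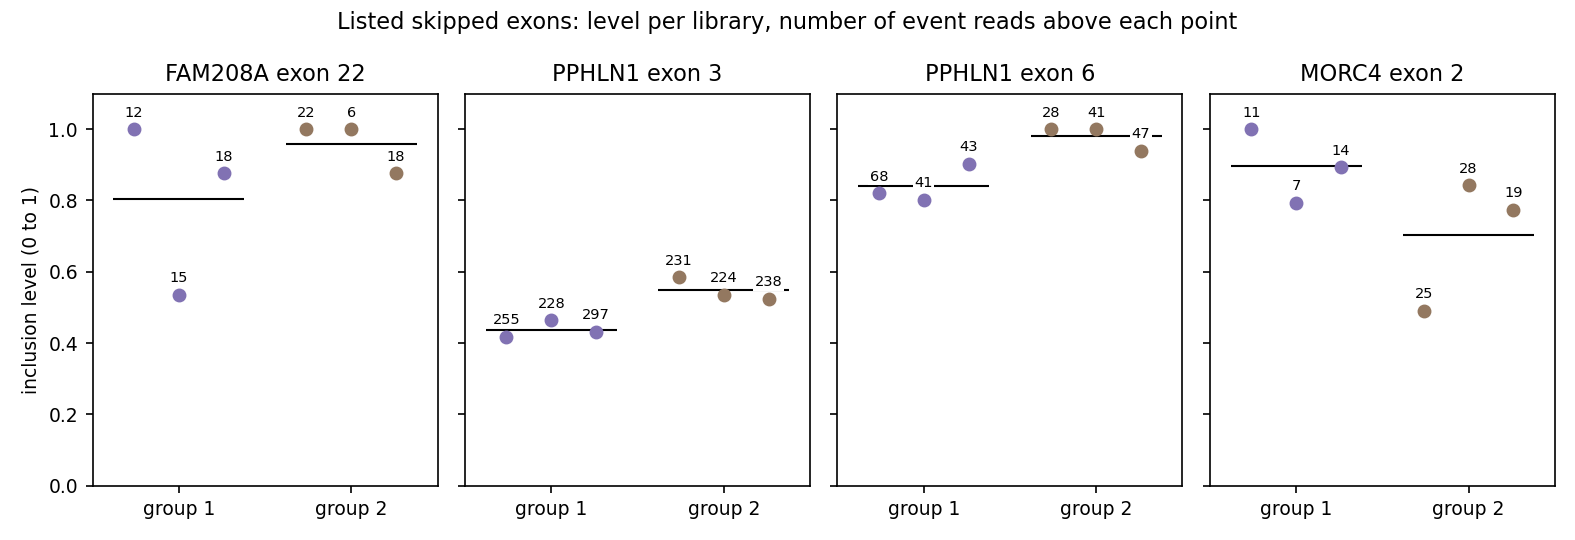
Inclusion level (vertical axis, 0 to 1) of the 4 listed skipped exons in the 3 libraries of group 1 (purple) and group 2 (brown), with the mean of each group as a line and the number of reads above each point. The groups are apart for PPHLN1 exons 3 and 6, and for FAM208A exon 22 and MORC4 exon 2, which have 28 reads or fewer in a library, they overlap.

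Other genes of the pathway were followed by lists. Of 15 partners in H3K9 methylation, 9 were higher, 4 lower and 2 not called in shRBM39, with a median log2 fold change of 0.14 beside the -0.01 of all tested genes. Over all tested genes 59.1% were called, 29.2% higher and 29.9% lower, and the counts of this and the next lists stand beside those shares. The heterochromatin proteins, which bind the mark made by SETDB1, rose: CBX1 from 262 ± 2.76 to 445 ± 4.86 CPM (SD, n = 3; log2 fold change 0.76, adjusted p 5.34e-19) and CBX5 from 165 ± 2.24 to 254 ± 6.03 CPM (0.62, adjusted p 3.29e-16). SETDB2, a relative of SETDB1, went from 20.44, 21.7 and 19.8 CPM in shCtrl to 11.3, 9.53 and 11.6 CPM in shRBM39, a log2 fold change of -0.93 (adjusted p 3.12e-12), unlike SETDB1 itself. Named after their values were seen, ATF7IP, the stabilising partner of SETDB1, and TRIM28, which recruits SETDB1 to zinc finger protein targets, changed by -0.21 (adjusted p 0.000141) and 0.23 (adjusted p 1.71e-06), and the TASOR paralog FAM208B was not called at -0.10 (adjusted p 0.0951).

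The nuclear exosome targeting complex, which removes RNA and is known to work with HUSH, had 1 of 3 genes higher, 1 lower and 1 not called, with a median of -0.11, close to the 29.2% and 29.9% of all tested genes. ZCCHC8, its scaffold, changed by -0.27 (adjusted p 0.00201) and SKIV2L2, its helicase, by 0.11 (adjusted p 0.0293). Of 7 genes of PML bodies, where MORC3 is found, and of H3.3 deposition, 3 were higher, 2 lower and 2 not called, with a median of -0.06, where 59.1% of all tested genes were called. DAXX, an H3.3 chaperone, was higher by 0.48 in log2 (adjusted p 2.67e-12) and SP100, a PML body component, lower, at -0.39 (adjusted p 1.15e-07).

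Genes listed for the sensing of double-stranded RNA, which can be formed by transcripts of elements that HUSH represses, were called at a share near the background. The list holds sensors and also the adaptor MAVS (log2 fold change -0.21, called lower) and the editing enzyme ADAR (0.21, called higher). Of 8 listed and 6 tested, 2 were higher, 2 lower and 2 not called, with a median of 0.26, beside 59.1% of all tested genes called. EIF2AK2, the kinase PKR, rose by 0.45 in log2 (adjusted p 2.86e-10), whereas IFIH1, the sensor MDA5, went from 10.9 ± 0.145 to 7.54 ± 0.198 CPM (SD, n = 3), which was -0.53 in log2 (adjusted p 7.45e-06). The 2 untested genes, TLR3 and ZBP1, had under 1 CPM in each library.

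All 5 genes that other work has described as repressed by MORC2 were called, 2 higher and 3 lower, with a median of -0.21, beside 59.1% of all tested genes. The count was 3 of 5 with library totals, on either RPKM scale and with offsets for GC content and length. It was 4 with DESeq2 and with upper-quartile scaling, and 4 to 5 with 1 library left out. CA9, a carbonic anhydrase, had 60.6, 59.2 and 61.8 CPM in shCtrl and 27.6, 31.5 and 28.9 CPM in shRBM39, a log2 fold change of -1.05 (adjusted p 1.81e-18). SORBS2, an adaptor protein, went from 21.8 ± 1.54 to 13.4 ± 0.195 CPM (SD, n = 3; -0.70, adjusted p 2.91e-10), and CDKN1A, the cell cycle inhibitor p21, from 1.39 ± 0.474 to 2.00 ± 0.178 CPM (0.53, adjusted p 0.0435). CDKN1A had only 20 to 38 counts in a library. The protocadherin beta genes, a cluster known to be under H3K9 methylation by SETDB1, were mostly at low counts: of 15 listed, 7 were tested, 2 were higher and 5 not called, with a median of 0.44. The 2 of 7 called higher were near the 29.2% of all tested genes. None was called lower, beside 29.9%, so the calls in either direction were also 2 of 7, beside 59.1%. The 5 genes not called had 34 counts or fewer in each library. The count of calls ran from 1 to 3 with 1 library left out. PCDHB5 rose from 3.23, 3.44 and 3.40 CPM in shCtrl to 6.43, 6.16 and 6.14 CPM in shRBM39 (log2 fold change 0.90, adjusted p 1.99e-07), and PCDHB14 was 0.46 higher in log2 (adjusted p 0.0128).

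**Figure D5:**
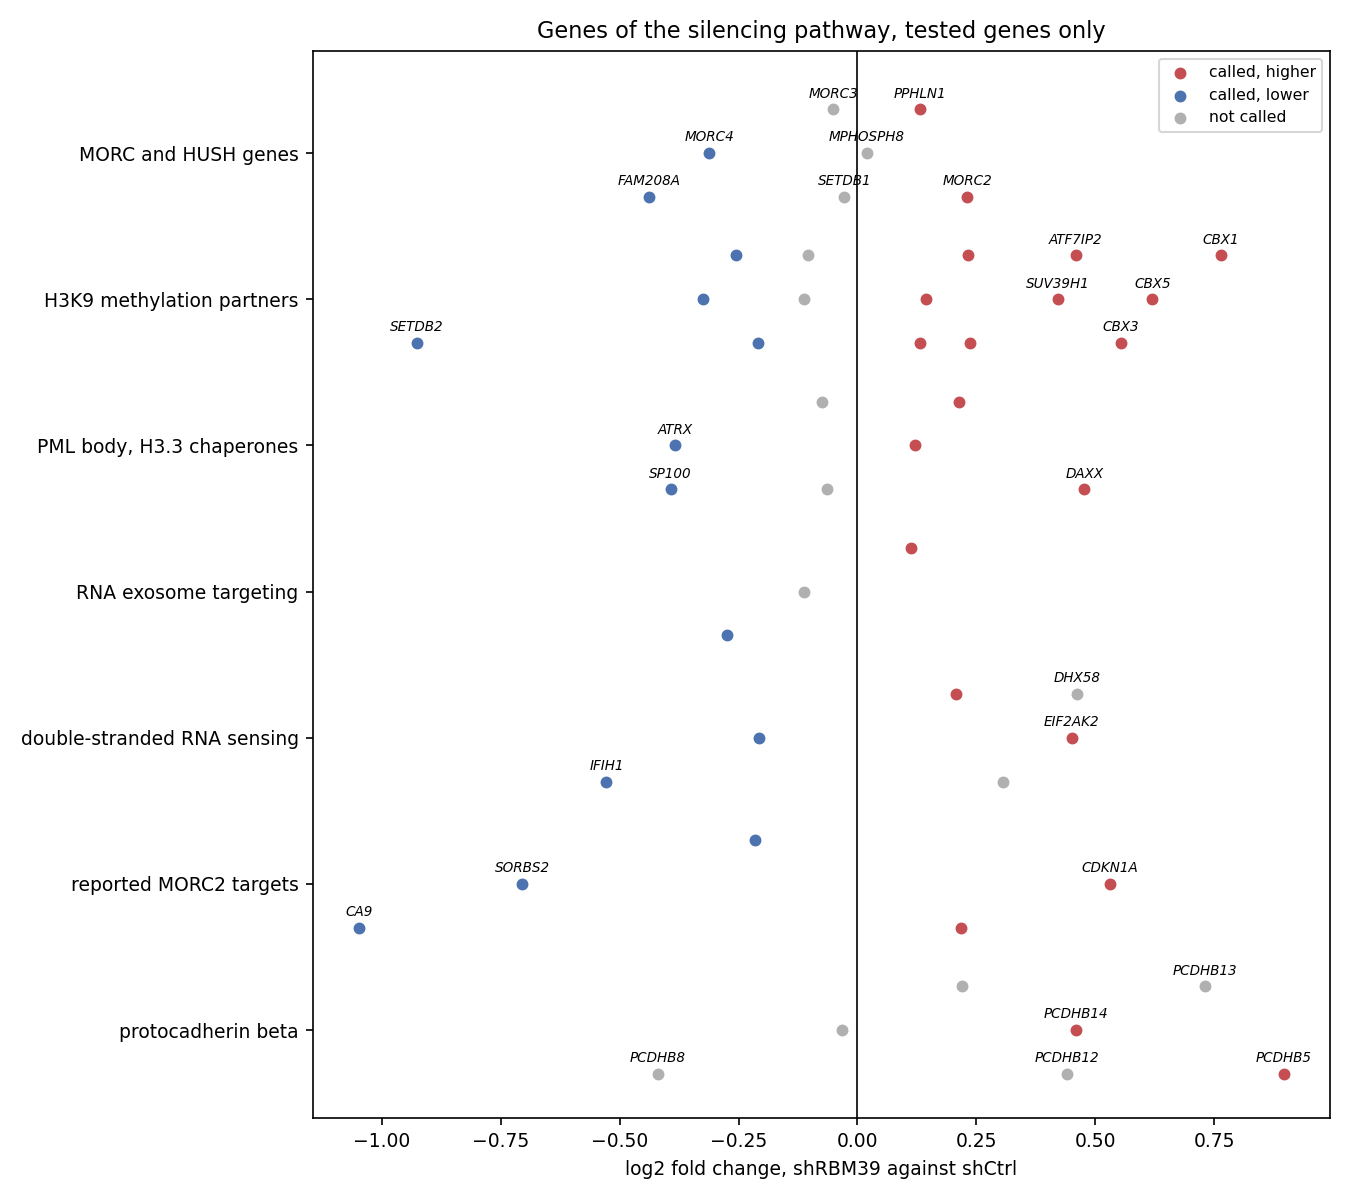
Log2 fold change of shRBM39 against shCtrl (horizontal axis) of the tested genes in each list, with red for genes called higher, blue for genes called lower and grey for genes not called, spread vertically within a list only for legibility. The 7 MORC and HUSH genes lie between -0.44 and 0.23, a narrower range than the -0.93 to 0.76 of the H3K9 methylation partners.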

How the data were processed

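RNA of 6 SW480 libraries was prepared with a stranded mRNA kit, and titles gave the groups and replicate numbers. NC in a column name was taken to mean shCtrl, since the series has no other control. Deposited raw counts are given by symbol on merged exons. The submitters' processing notes name Trimmomatic 0.36, STAR 2.5.3a, featureCounts of Subread 1.5.1, edgeR 3.12.1 and GRCh38. How multi-mapped reads were counted is not given in the sources used here. The authors also deposited RPKM, which was recomputed from the counts to a relative difference of at most 5.1e-15. The deposited splicing table of rMATS gives, per the file headers, reads and inclusion levels as fractions, from counts of junction and exon reads, which were recomputed to within 5e-04. Its p-value, FDR and difference columns hold the authors' own comparison and were read only to find how records had been selected. Of 280 exons of the 7 genes, 97.5% were identical to exons of GENCODE 44, from which exon numbers were taken, and sequences were read from the GRCh38 reference.

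Counts were tested with edgeR 4.0.16 in R 4.3.3 (filterByExpr, TMM, a quasi-likelihood fit of group alone, Benjamini-Hochberg adjustment over all 18243 tested genes, calls at an adjusted p under 0.05). Standard errors were derived from the fold change and its F statistic. Splicing reads were fitted in edgeR over all 1582 records. Permutation tests were exact and two-sided. Both fits were tested on simulated counts. No pair of replicates agreed within sampling noise (the chi-square over its degrees of freedom was 2.11 to 4.21). The columns of per-sample values that were not used numbered 0.

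The 7 genes and all lists were chosen with earlier results of these data known. From each pathway list the called genes with the highest and the lowest log2 fold change and those changed at least 1.5-fold were named, and every listed splicing record of the 7 genes was described. The alternatives for the counts were scaling by upper quartiles or by library totals, DESeq2 1.42.0, limma-trend (limma 3.58.1) on log2(RPKM + 1) and log2(RPKM + 0.1), no low-count filter, a minimum of 10 counts per library, a replicate block, testing whether an absolute log2 change exceeds 0.5, offsets for GC content and length, and each library left out in turn. For splicing they were the edgeR fit, each value left out, levels without the length correction and pooled reads. Precision is limited by 3 libraries per group and, for splicing, by the reads per exon.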

Additional observations from a re-analysis of the deposited data

How the results depend on the processing

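MORC4 and FAM208A were called in 15 of 16 alternatives, MORC2 in 13 and PPHLN1 in 10, while MPHOSPH8 was called in 3 and MORC3 and SETDB1 in 1 each. Of 298 values recomputed, 257 kept their direction and their side of the threshold, or moved by less than the spread or the limit for counts. For splicing this rule was lenient. The edgeR fit counted as kept by direction alone, also for FAM208A exon 22 and MORC4 exon 2, with adjusted p of 0.158 and 0.105. A move of FAM208A exon 22 from -0.15 to -0.02 with 1 value left out also counted as kept. Scaling by library totals moved the median of all genes by -0.12 in log2 and the share of calls that were higher from 49.4% to 33.9%. PPHLN1 was then at 0.0071, MPHOSPH8 at -0.10 (adjusted p 0.0228), MORC3 at -0.17 (0.0290) and SETDB1 at -0.15 (0.0161), all by edgeR. Relative to that median, MORC2, PPHLN1 and MPHOSPH8 lay above and FAM208A, MORC4, MORC3 and SETDB1 below. MPHOSPH8 lay above only slightly, at -0.104 beside a move of -0.124. With limma on log2(RPKM + 1), which moved the median by -0.11, MORC2 was at 0.10, MPHOSPH8 at -0.10 (adjusted p 0.0245) and PPHLN1 at 0.0067, and on log2(RPKM + 0.1), with -0.12, at 0.11, -0.10 (0.0257) and 0.0080; in both, 33.6% of the calls were higher. In all 3 settings, 3 of the 5 reported MORC2 targets and 1 protocadherin gene were called.

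Upper-quartile scaling put PPHLN1 at 0.10 (adjusted p 0.0585) and MPHOSPH8 at -0.0134. Offsets for GC content and length put SETDB1 at 0.0254 and left 3 reported MORC2 targets. With these offsets PPHLN1 was at 0.25 (adjusted p 3.97e-06 by edgeR), MORC2 at 0.27, MORC4 at -0.29 and FAM208A at -0.33. DESeq2 called 1 exosome targeting gene and 1 protocadherin gene. The test against 0.5 called 2232 genes in place of 10790, 0 of the 7 genes (MORC2 0.23, MORC4 -0.31, PPHLN1 0.13, FAM208A -0.44), 3 H3K9 partners, 2 reported MORC2 targets, 1 protocadherin gene and 0 of the exosome, PML body and double-stranded RNA lists; 4 of the 7 genes had an unadjusted p under 0.05 in the test against 0. With 1 library left out, 3 to 4 of the 7 genes were called, PPHLN1 ran from 0.11 to 0.16, SETDB1 from -0.0656 to 0.0016, MORC3 from -0.0888 to 0.0014, exosome targeting calls from 1 to 2 and protocadherin calls from 1 to 3; SETDB1 turned sign without shCtrl replicate 2 and MORC3 without shCtrl replicate 3. The difference of FAM208A exon 22 ran from -0.25 to -0.02, of MORC4 exon 2 from 0.09 to 0.26, of PPHLN1 exon 3 from -0.12 to -0.09 and of exon 6 from -0.17 to -0.12. Where a value moved between settings, the cause was not tested.

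With the replicate number as a block, 10810 genes were called, and no call of the 7 genes changed. The libraries share only a number: deviations of same-numbered libraries correlated by 0.0061, -0.046 and 0.037. No paired analysis was possible for the splicing records because their values carry no replicate numbers.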
